A study of Mus musculus with 14 samples.

Results

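The interferon-inducible gene families were the probe sets of a mouse Clariom S array, a whole-transcript expression microarray, whose annotated symbol begins with the stem of an interferon-induced family (Ifit, Ifitm, Ifi, Gbp, Oas, Irf, Irgm, Iigp, Mx or Isg) followed by a digit, or by l for the Oas-like genes. The rule found 62 genes of 19505 named genes, each with 1 probe set, among 22206 tested probe sets. By textbook knowledge 28 of the 62 are induced mainly by type I interferon, 12 respond strongly to type II interferon, and 22 were assigned to neither. A further 15 symbols of the same families, Gbp5, Gbp6, Ifi44 and Ifi47 among them, were not analysed here. The pattern also admits 4 genes that share a stem only: Irf2bp1, Irf2bp2 and Irf2bpl, which encode partners of IRF2 or their relatives, and Isg20l2, a relative of Isg20. RNA came from wild-type adult male C57Bl6 mice kept for 2 weeks on a CDAA diet with added cholesterol, glucose and fructose, or on the CSAA control diet. CDAA is in common use the name of a choline-deficient, amino acid-defined diet that causes fatty and inflamed livers in mice, and CSAA the name of its choline-supplemented counterpart. The 4 groups were total liver on CDAA (n = 4 arrays), total liver on CSAA (n = 4), primary hepatocytes on CDAA (n = 3) and primary hepatocytes on CSAA (n = 3). Total liver was a lobe taken after saline perfusion of the animal, and hepatocytes were freed by collagenase perfusion, so other liver cells may remain among them. The arrays of a group came from independent preparations, the labels do not say whether the same mice gave both tissues, and the p-values below measure the spread between these preparations.

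Interferons are secreted proteins that warn neighbouring cells of infection or damage. Type I interferons (alpha and beta) bind the IFNAR receptor, and their signal reaches the interferon-stimulated response element (ISRE) of genes such as Isg15, Mx1, and the Ifit and Oas families. Type II interferon (gamma), made mainly by NK and T cells, binds the IFNGR receptor, and its signal reaches gamma-activated sites (GAS) of genes such as Irf1 and, directly or through IRF1, the Gbp and Irgm families. The separation is one of degree, since most type II biased genes also answer to type I interferon. In liver these genes are expressed by hepatocytes, Kupffer cells (the resident macrophages), recruited macrophages and endothelial cells.

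After 2 weeks of CDAA feeding, members of both classes were higher in both tissues, and no member passed the test as lower. In total liver 29 of 62 members rose and 0 fell at a limma adjusted p under 0.05, where 6.73% of all tested probe sets were called higher and 3.54% lower. In primary hepatocytes 33 of 62 rose and 0 fell, where 11.0% of all probe sets were called higher and 7.74% lower. At an unadjusted limma p under 0.05, 3 members were lower in CDAA livers (Ifi44l, Ifitm7 and Oas1d) and 2 were lower in CDAA hepatocytes (Irf3 and Oas1e). After centring arrays on their medians, Ifi44l and Ifitm7 in total liver and Irf3 and Oas1e in hepatocytes were called lower, and without CDAA hepatocyte replicate 1 the 4 genes Irf2, Irf3, Irf2bp2 and Irf2bpl were. Among the calls in total liver, those of Gbp4, Gbp8, Ifi208, Ifitm6, Irf1, Irf8, Isg20, Oas1g and Oasl1 were lost on leaving out 1 or more of the 8 arrays in turn, with 21 of the 29 left without CSAA replicate 2, CSAA replicate 4, CDAA replicate 1 or CDAA replicate 4. Over all probe sets the calls of higher in those runs were 1080 to 1178, against 1494 with all arrays. In hepatocytes the calls of Gbp7, Ifit1, Isg15 and Isg20 were lost without CDAA replicate 2 or without CSAA replicate 2, leaving 29 of 33. There 1951 and 2055 of all probe sets were called higher, against 2439 with all arrays. The adjusted p-values are from limma, a linear model for arrays with a mean for each of the 4 groups and Benjamini-Hochberg adjustment over all 22206 probe sets, and every difference below is CDAA minus CSAA in log2 intensity.

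The calls divided by class as follows. Of 28 type I biased members, 14 rose in total liver and 13 in hepatocytes. Of 12 type II biased members, 8 rose in total liver and 9 in hepatocytes. The type II count in total liver was lower with 1 array left out. It was 4 without CDAA replicate 1 or CDAA replicate 4 and 5 without CSAA replicate 2 or CSAA replicate 4. The type I count was then 11 or 12. Over all probe sets the calls of higher fell too, from 1494 to 1080, 1178, 1156 and 1162 in these runs. The type II median difference was 1.07 to 1.19 in them. Of 22 members not assigned, 7 rose in total liver and 11 in hepatocytes, most of them PYHIN genes (the Ifi200 cluster of DNA-binding proteins). The median difference in total liver was 0.98 for type I biased, 1.12 for type II biased and 0.46 for unassigned members, beside -0.09 for all tested probe sets. In hepatocytes the median was 0.72 for type I biased, 2.56 for type II biased and 0.72 for unassigned members, beside -0.13 for all tested probe sets. The type I list held several members with signals near the bottom of the scale, and its median over the members above the negative control level in at least 1 diet group was 1.97 in total liver (6 members) and 2.42 in hepatocytes (15 members). The same restriction gave type II medians of 0.84 (9 members) and 2.56 (12 members). The restriction favours members that differ by diet, since a member can enter through its high group. The restricted medians therefore cannot rank the classes. That these medians differ between the classes was not tested.

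**Figure D1:**
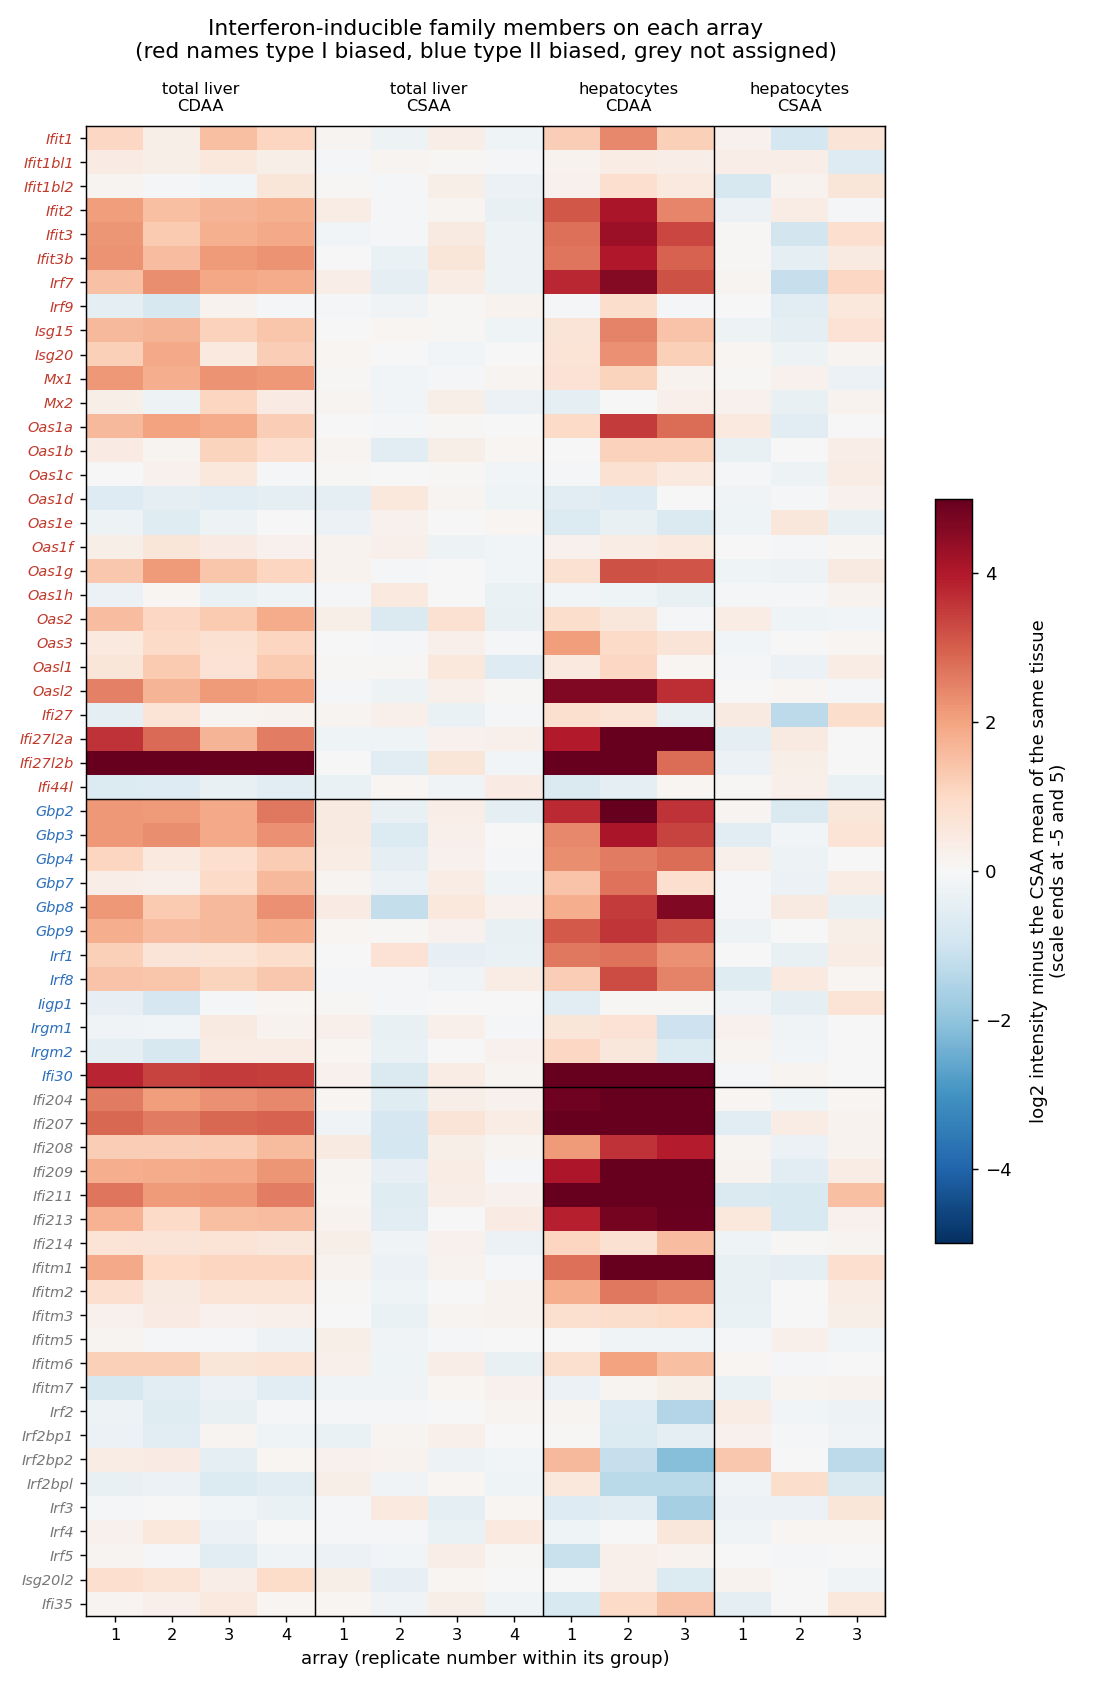
Each of the 62 members (rows) on each of the 14 arrays (columns), as log2 intensity minus the CSAA mean of the same tissue, with the colour scale ending at -5 and 5. The 4 CDAA livers and 3 CDAA hepatocyte preparations are red for most Gbp, PYHIN and Ifit genes, while Irgm1, Irgm2, Iigp1 and most Irf genes stay near the CSAA level.

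Signal over background limits these values. The background here is the 95th percentile of 5222 negative control probe sets, which lay at 9.998 to 10.09 on the CDAA livers, 9.96 to 10.23 on the CSAA livers, 6.84 to 7.61 on the CDAA hepatocytes and 7.57 to 8.01 on the CSAA hepatocytes. On every array of a group, 38 members in CDAA livers and 45 in CSAA livers lay under it, and 37 did so in both. In hepatocytes the counts were 21 on CDAA, 42 on CSAA and 21 on both. Of the members called higher, 15 of 29 in total liver and 3 of 33 in hepatocytes were under this percentile in both diets, so their differences are differences of dim signals and are not read as folds. Where only the CSAA arrays were under it, the smallest difference that the background allows is given as a bound ("at least") beside the measured difference, or is said to be none where the CDAA mean did not clear the percentile of the CSAA arrays. Medians over lists are of measured differences. Array medians were 5.85 to 6.06 in total liver and 4.68 to 4.89 in hepatocytes, so levels are compared between diets and never between tissues. Every CDAA array lay above every CSAA array for 35 members in total liver (13.1% of all probe sets) and for 33 in hepatocytes (12.4% of all), and below every CSAA array for 3 members in each tissue (12.0% and 14.2% of all).

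The other cells in the samples changed with diet as well, and in a bulk sample fewer cells of a type and less RNA per cell cannot be told apart. Hepatocyte markers (Alb, Apoa1, Ttr and others) averaged 17.16 to 17.55 on CDAA livers, 17.63 to 17.67 on CSAA livers, 16.98 to 17.63 on CDAA hepatocytes and 17.75 to 18.03 on CSAA hepatocytes, and 2 of 7 fell in hepatocytes (Cps1 and Hnf4a). In hepatocyte preparations the Kupffer cell list averaged 11.21, 12.61 and 12.30 on the CDAA arrays 1 to 3, against 5.31, 5.62 and 5.19 on the CSAA arrays, and 7 of 7 of its genes rose. The recruited macrophage list averaged 10.17, 11.99 and 11.88 on CDAA, against 4.81, 4.95 and 4.84 on CSAA, with 6 of 6 genes higher. The sinusoidal endothelial list averaged 10.74, 10.70 and 9.38 against 5.79, 6.28 and 5.70, with 6 of 6 genes higher. The stellate cell list averaged 9.51 to 10.61 against 5.47 to 6.30, with 5 of 5 higher. On the CSAA hepatocyte arrays 7 of 7 Kupffer cell, 5 of 6 recruited macrophage, 5 of 6 endothelial and 4 of 5 stellate markers were under the negative control percentile. In total liver the recruited macrophage list averaged 10.57 to 11.65 on CDAA against 6.74 to 6.87 on CSAA (6 of 6 higher), and the Kupffer cell list 10.94 to 11.66 against 9.04 to 10.01 (4 of 7 higher). T and NK cell markers, which include the main sources of interferon gamma, were dim in both tissues, and some of them were called. Their list averaged 5.37 to 5.97 on CDAA livers and 4.94 to 5.09 on CSAA livers, with 8 of 8 under the percentile in both, 2 higher and 1 (Cd4) lower. On hepatocytes it averaged 4.18 to 5.40 on CDAA and 3.78 to 3.92 on CSAA, with 7 of 8 and 8 of 8 under the percentile and 3 higher. The NK cell genes Ncr1 and Klrb1c rose in both tissues by limma, Ncr1 with adjusted p-values of 0.00152 and 0.000937 and Klrb1c with 0.0252 and 0.00106, and Gzma, a granzyme, rose in hepatocytes (limma adjusted p = 0.0104). The CDAA hepatocyte preparations thus carried more signal of macrophage, endothelial and stellate markers than the CSAA preparations, and the part of those cells in the hepatocyte results below was not tested.

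**Figure D2:**
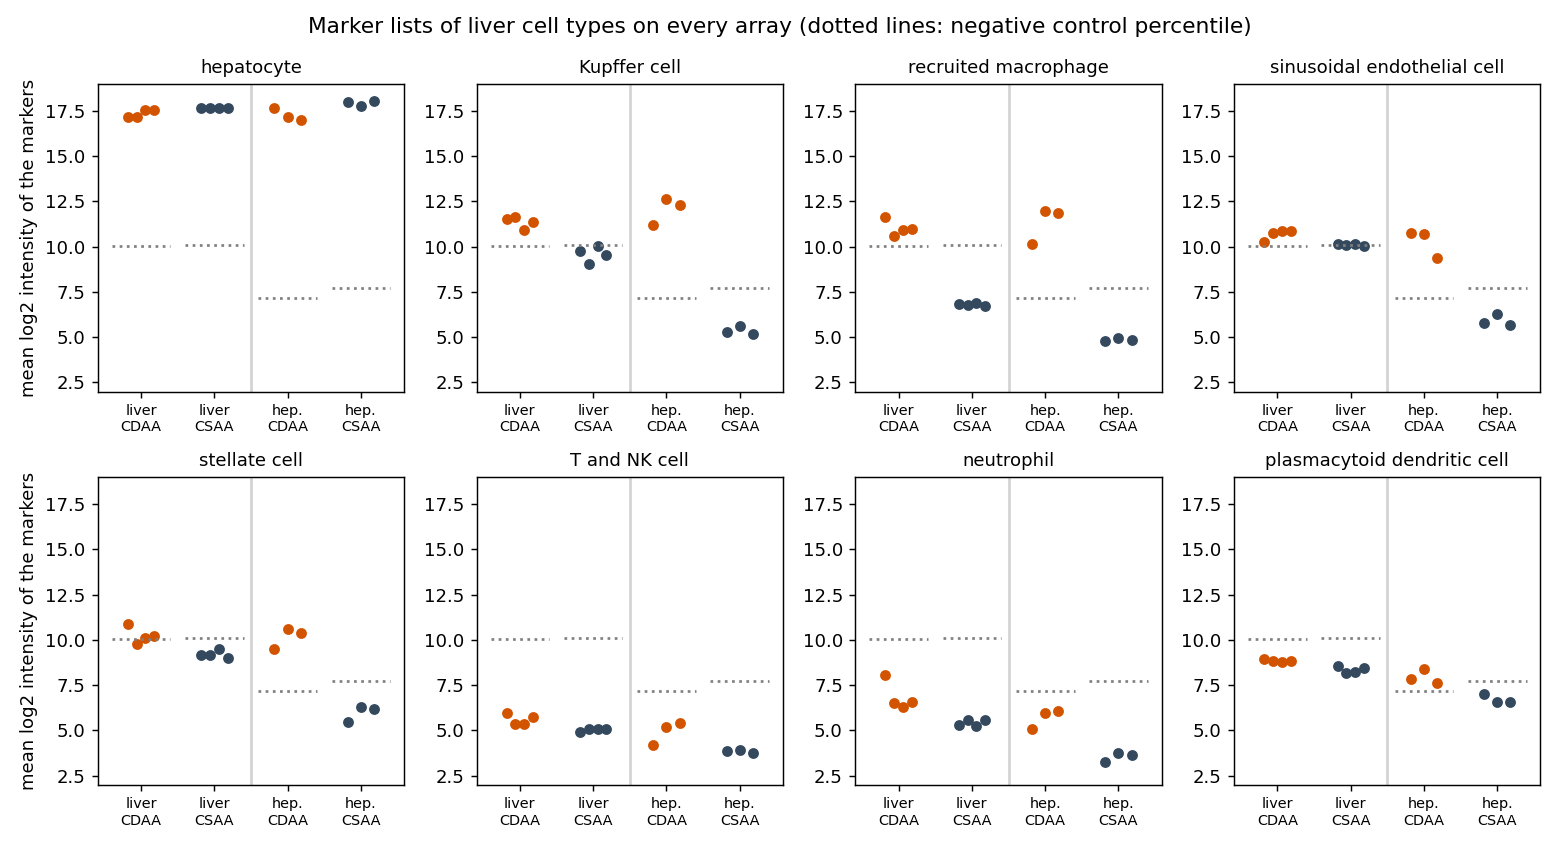
Mean log2 intensity of 8 marker lists on every array, with CDAA in orange, CSAA in dark blue and the negative control percentile dotted. In hepatocyte preparations the macrophage, endothelial and stellate lists sit under the dotted line on CSAA and above it on CDAA, while the hepatocyte list stays between 16.98 and 18.03.

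The promoters of the members were searched for the elements through which type I and type II interferon act. RefSeq promoters (GRCm38.p6), running from 250 bases before to 50 after a start, were matched for 48 of 62 members. A gene with more than 1 promoter was counted if any of them held the core. The ISRE core searched was GAAA, any 2 bases and GAAA again, and the GAS core was TTCNNNGAA, both read on either strand, and matches of the 2 patterns can overlap. An ISRE core was present in 23 of the 48 members (47.9%), against 3.99% of all 27025 genes of the table. A GAS core was present in 12 members (25.0%), against 9.55% of all genes. By class, the ISRE core stood in 10 of 19 type I biased, 5 of 8 type II biased and 8 of 21 unassigned members, and the GAS core in 3, 4 and 5 of them. By family, the ISRE core stood in 5 of 6 Ifit, 5 of 6 PYHIN, 3 of 3 Gbp and 1 of 11 Irf genes, and the GAS core in 4 of 11 Irf genes. Of members that rose in at least 1 tissue, 17 of 28 held an ISRE core and 8 of 28 a GAS core, and of members called in neither tissue, 6 of 20 and 4 of 20. A match describes letters in this window and is neither a bound site nor a cause of a diet effect. In the stretches printed below, the 200 bases before the start run 5′ to 3′ on the gene's strand, positions count back from the start, and capitals mark the matches; an ISRE core on the opposite strand reads TTTC, any 2 bases and TTTC.

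**Figure D3:**
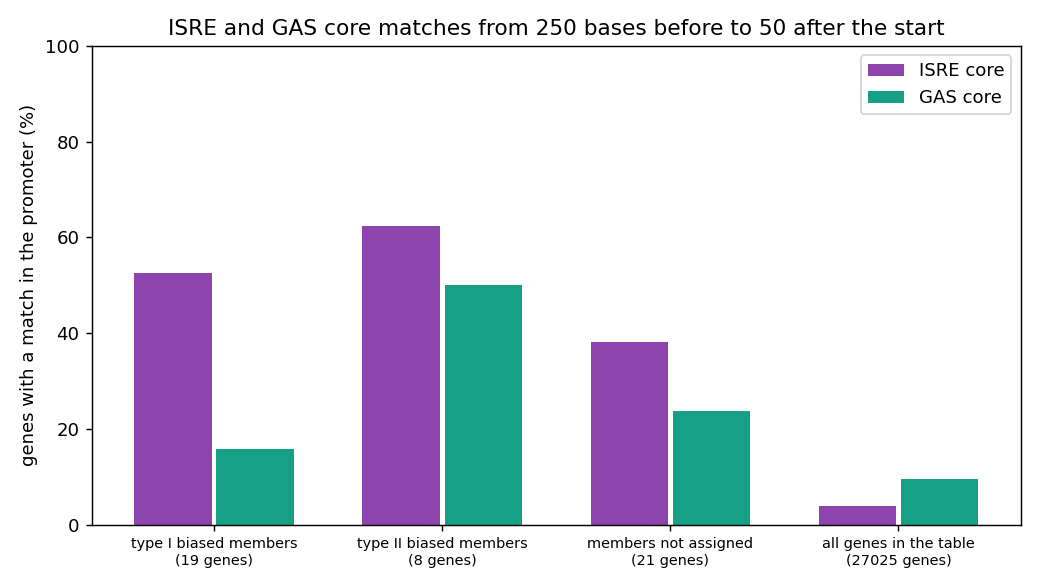
Share of genes (%) with an ISRE core (purple) or a GAS core (green) in the 300-base RefSeq promoter, for the 3 classes of members and for all 27025 genes. The ISRE core is in 38.1% to 62.5% of the member classes and in 3.99% of all genes.

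Among the interferon regulatory factors, which are transcription factors that switch on interferons and their targets, 3 of 11 members with an Irf stem rose in each tissue. They were the same genes in both tissues: Irf7, Irf8 and Irf1. Irf7, which is itself induced by type I interferon and amplifies its production, had 10.39, 11.27, 10.84 and 10.80 on the CDAA livers, against 9.25, 8.48, 9.30 and 8.69 on the CSAA livers. Its hepatocyte values were 11.72, 12.54 and 11.13 on CDAA, against 8.06, 6.76 and 8.99 on CSAA. No CDAA array of either tissue reached down to a CSAA array. The difference was 1.90 ± 0.40 in total liver (SE, limma adjusted p = 0.00597), where the CSAA arrays were under the negative control percentile and the bound is 0.74. In hepatocytes it was 3.86 ± 0.47 (limma adjusted p = 1.81e-05).

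Irf8, a factor of macrophages and dendritic cells that interferon gamma induces, had 6.90, 6.84, 6.56 and 6.83 on CDAA livers, against 5.36, 5.37, 5.28 and 5.84 on CSAA livers, all of them dim. The hepatocyte arrays gave 6.16, 8.21 and 7.40 on CDAA, against 4.34, 5.44 and 5.04 on CSAA. The groups did not overlap in either tissue, and limma called both differences, 1.32 ± 0.35 (adjusted p = 0.0224) and 2.32 ± 0.40 (adjusted p = 0.000548), with no bound in either tissue. Irf1, the early mediator of the interferon gamma response, had 10.61, 10.05, 10.13 and 10.29 on CDAA livers, against 9.46, 10.16, 8.998 and 9.09 on CSAA livers. CSAA liver replicate 2 lay inside the CDAA range and was the only CSAA liver above the negative control percentile. The difference of 0.84 ± 0.26 was close to the threshold (limma adjusted p = 0.0483). That call was lost with the replicate number as a block, under joint quantile normalization, after centring arrays on their medians, under trend and robust moderation, and without any 1 of 7 of the 8 liver arrays, all but CSAA replicate 2. In hepatocytes Irf1 separated widely, at 10.85, 10.94 and 10.50 on CDAA against 8.23, 7.83 and 8.59 on CSAA (difference 2.55 ± 0.30, limma adjusted p = 1.17e-05).

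Promoters of Irf1 (chr11:53769814-53770013, plus strand) and Irf8 (chr8:120736158-120736357, plus strand) are shown because they carry the GAS core of the type II pathway, 1 match in Irf1 and 2 in Irf8. Each of these genes has 2 RefSeq promoters, and the promoter printed was picked for having the most matches.
Irf1: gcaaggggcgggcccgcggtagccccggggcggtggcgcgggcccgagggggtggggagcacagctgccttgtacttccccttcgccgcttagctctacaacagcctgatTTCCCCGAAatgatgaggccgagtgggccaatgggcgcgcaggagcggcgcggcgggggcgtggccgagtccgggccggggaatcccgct
Irf8: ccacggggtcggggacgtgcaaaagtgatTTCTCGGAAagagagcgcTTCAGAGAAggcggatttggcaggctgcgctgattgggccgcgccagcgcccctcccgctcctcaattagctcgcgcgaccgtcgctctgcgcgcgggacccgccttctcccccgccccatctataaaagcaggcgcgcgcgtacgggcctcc

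The other factors gave no call. Irf3, which sensors of viral nucleic acid activate by phosphorylation and not by induction, differed by -0.13 ± 0.28 in total liver. In hepatocytes its arrays gave 8.64, 8.72 and 7.62 on CDAA, against 8.97, 8.97 and 9.89 on CSAA, a difference of -0.95 ± 0.33 that missed the threshold (limma adjusted p = 0.054). Irf2, a repressor that competes with IRF1 for its sites, differed by -0.31 ± 0.28 and -0.65 ± 0.32 (limma adjusted p = 0.538 and 0.181), and Irf5, a factor of macrophage activation, by -0.15 ± 0.27 and -0.23 ± 0.31 (limma adjusted p = 0.781 and 0.66).

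Among the classical type I effectors, the Ifit genes, whose proteins bind foreign RNA and block its translation, had 3 of 6 members higher in total liver (Ifit2, Ifit3 and Ifit3b) and 4 of 6 in hepatocytes (also Ifit1). Ifit3 had 12.53, 11.66, 12.10 and 12.24 on CDAA livers, against 10.18, 10.30, 10.80 and 10.07 on CSAA livers. Hepatocyte preparations had 11.05, 12.59 and 11.64 on CDAA, against 8.38, 7.37 and 9.16 on CSAA. Both tissues separated fully by diet. The differences were 1.80 ± 0.37 (limma adjusted p = 0.00446) and 3.46 ± 0.42 (limma adjusted p = 2.11e-05). Its near copy Ifit3b differed by 2.04 ± 0.31 and 3.21 ± 0.35, and whether the probe sets tell the pair apart was not checked. Ifit2 differed by 1.77 ± 0.30 (limma adjusted p = 0.000952), from dim signals, and 3.22 ± 0.34 (limma adjusted p = 4.78e-06), with no bound in either tissue. Ifit1 was under the negative control percentile on all arrays but CDAA hepatocyte replicate 2, and passed in hepatocytes (1.62 ± 0.40, limma adjusted p = 0.00958) but not in total liver (0.97 ± 0.35, limma adjusted p = 0.0972). The difference between those 2 effects, -0.65 ± 0.53, was not called (limma adjusted p = 0.714). The Ifit1 homologues Ifit1bl1 and Ifit1bl2 differed by 0.14 to 0.53 in the 2 tissues with no call.

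Isg15, a ubiquitin-like protein that is attached to other proteins, had 6.53, 6.60, 6.03 and 6.27 on CDAA livers, against 4.93, 5.01, 4.96 and 4.68 on CSAA livers. In hepatocytes it had 5.58, 7.44 and 6.36 on CDAA, against 4.70, 4.47 and 5.69 on CSAA. The liver groups separated, while CDAA hepatocyte replicate 1 lay just under CSAA replicate 3. Limma called both, at 1.46 ± 0.34 (adjusted p = 0.0101) and 1.51 ± 0.39 (adjusted p = 0.0117), from signals that were almost all under the negative control percentile. Isg20, an exonuclease that degrades viral RNA, rose by 1.21 ± 0.32 in total liver and 1.38 ± 0.37 in hepatocytes (limma adjusted p = 0.0238 and 0.0147), with no bound in either tissue. Only 2 CDAA hepatocyte arrays were above the negative control percentile, and all liver arrays of both diets were under it.

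The promoters of Isg15 (chr4:156200819-156201018, minus strand), Ifit3 (chr19:34583329-34583528, plus strand) and Ifit1 (chr19:34640689-34640888, plus strand) are shown as type I biased genes with repeated ISRE cores, 3 overlapping matches in Isg15 and 2 in each Ifit gene.
Isg15: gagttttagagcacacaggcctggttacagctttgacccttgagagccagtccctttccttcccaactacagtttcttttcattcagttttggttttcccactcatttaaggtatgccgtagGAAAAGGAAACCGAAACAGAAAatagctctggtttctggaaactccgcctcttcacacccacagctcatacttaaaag
Ifit3: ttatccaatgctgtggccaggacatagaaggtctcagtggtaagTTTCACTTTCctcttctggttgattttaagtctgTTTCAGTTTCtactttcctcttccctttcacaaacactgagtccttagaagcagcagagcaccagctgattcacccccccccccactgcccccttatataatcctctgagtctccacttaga
Ifit1: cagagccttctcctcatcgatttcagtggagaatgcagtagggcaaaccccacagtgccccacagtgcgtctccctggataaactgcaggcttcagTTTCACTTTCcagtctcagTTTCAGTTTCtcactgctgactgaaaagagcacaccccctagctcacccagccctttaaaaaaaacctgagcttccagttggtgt

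Mx1, a gene of the dynamin-like GTPase family, was the 1 member called as having a larger diet effect in total liver by the test of the difference. It had 7.63, 7.31, 7.73 and 7.65 on CDAA livers, against 5.54, 5.34, 5.41 and 5.63 on CSAA livers. Its hepatocyte values were 6.31, 6.69 and 5.74 on CDAA, against 5.63, 5.80 and 5.29 on CSAA. The liver groups were 2 tight clusters, all under the negative control percentile, and the hepatocyte groups overlapped. The difference was 2.10 ± 0.21 in total liver (limma adjusted p = 9.57e-06) and 0.67 ± 0.24 in hepatocytes (limma adjusted p = 0.0652), with a difference between them of 1.43 ± 0.32 (limma adjusted p = 0.0224). The call of that difference was lost with only the compared groups in the fit, without CSAA hepatocyte replicate 1 or 2, without CSAA liver replicate 3 and without CDAA liver replicate 3 or 4. In hepatocytes Mx1 was called higher with the replicate number as a block, with array weights and without CDAA replicate 3. Mx2, its paralogue, was not called in either tissue (0.38 ± 0.26 and -0.06 ± 0.31, limma adjusted p = 0.414 and 0.919).

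The Oas genes encode sensors of double-stranded RNA that make 2-5 oligoadenylate, the activator of RNase L, and the Oasl genes encode relatives of which some lack that activity. Of 12 members 5 rose in total liver (Oas1a, Oas1g, Oas2, Oasl1 and Oasl2) and 4 in hepatocytes (Oas1a, Oas1g, Oas3 and Oasl2). All 12 were under the negative control percentile on the CSAA arrays of both tissues. Oasl2 had the largest measured differences of the family. It had 10.25, 9.42, 9.85 and 9.76 on CDAA livers, against 7.64, 7.48, 7.97 and 7.80 on CSAA livers. The hepatocyte arrays gave 8.95, 8.93 and 8.02 on CDAA, against 4.33, 4.41 and 4.20 on CSAA. Each tissue separated with a wide gap. The differences were 2.10 ± 0.23 (limma adjusted p = 2.57e-05, no bound) and 4.32 ± 0.27 (limma adjusted p = 1.99e-08, at least 0.89).

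The other Oas calls in total liver were of dim signals. Oas1a rose by 1.68 ± 0.40 in total liver and 2.42 ± 0.47 in hepatocytes (limma adjusted p = 0.0132 and 0.00149), and its near copy Oas1g by 1.48 ± 0.42 and 2.37 ± 0.49, with no bound for either gene. Oas2 differed by 1.44 ± 0.31 in total liver (limma adjusted p = 0.00666) and 0.47 ± 0.36 in hepatocytes (limma adjusted p = 0.407). Oas3 ran the other way, at 0.82 ± 0.26 in total liver (limma adjusted p = 0.0545) and 1.24 ± 0.30 in hepatocytes (limma adjusted p = 0.00721). Neither Oas2 nor Oas3 was called in the test of the difference between tissues (limma adjusted p = 0.453 and 0.755). The copies Oas1b to Oas1f and Oas1h gave no call in either tissue, with differences from -0.59 to 0.76.

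The Ifi27 family, small membrane proteins of mitochondria and the nuclear envelope, held the largest measured difference of all members in total liver, though its bound was under that of Ifi30 given below. Ifi27l2b had 11.97, 11.12, 11.57 and 11.46 on CDAA livers, against 5.85, 5.31, 6.43 and 5.70 on CSAA livers. Hepatocyte preparations had 9.71, 9.58 and 6.59 on CDAA, against 3.51, 4.07 and 3.81 on CSAA. The CDAA livers all stood above the negative control percentile and the CSAA livers all under it, while CDAA hepatocyte replicate 3 stood apart from the other 2. That array was also lowest of its group in the endothelial, hepatocyte, plasmacytoid dendritic cell and bile duct cell lists. The part of any of those cells was not tested. The differences were 5.71 ± 0.51 (limma adjusted p = 3.9e-06) and 4.83 ± 0.59 (limma adjusted p = 2.1e-05), with bounds of 1.45 and 0.88. Ifi27l2a rose by 2.68 ± 0.50 from dim signals in total liver (limma adjusted p = 0.00215) and by 5.68 ± 0.57 in hepatocytes (limma adjusted p = 2.95e-06, at least 0.62), where CDAA replicate 1 at 6.64 was under the negative control percentile and below replicates 2 and 3 at 9.15 and 9.31. Ifi27 itself was above the negative control percentile and was not called: it had 10.41 to 11.59 on CDAA livers, against 10.59 to 11.15 on CSAA livers (difference 0.12 ± 0.40, limma adjusted p = 0.898), and 9.74 to 10.89 on CDAA hepatocytes, against 8.78 to 10.96 on CSAA hepatocytes (0.37 ± 0.47, limma adjusted p = 0.635). Ifi44l, a dim member of the type I list, differed by -0.56 ± 0.22 and -0.35 ± 0.26 with no call.

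**Figure D4:**
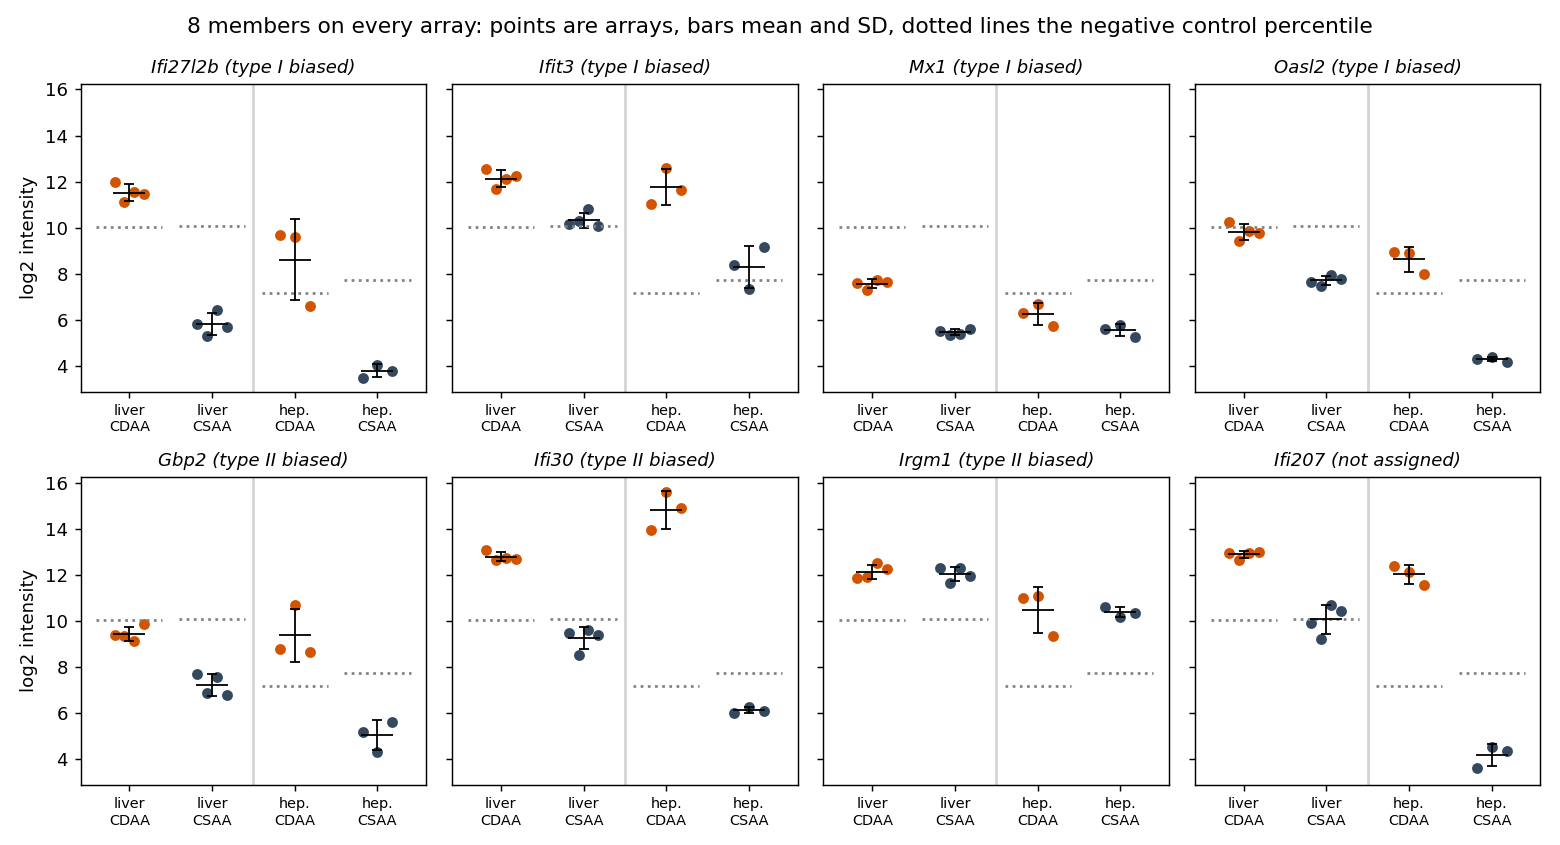
Log2 intensity of 8 members on every array, with points for arrays, bars for the mean and SD, and dotted lines for the negative control percentile of each group. Ifi30 and Ifi207 on CDAA hepatocytes lie between 11.58 and 15.60 with CSAA at 6.27 or less, Mx1 separates by diet in liver but not in hepatocytes, and Irgm1 overlaps between diets in both tissues.

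Type II biased members divided by family. Of the guanylate-binding proteins, large GTPases that coat the vacuoles of intracellular pathogens, 5 of 6 rose in total liver and 6 of 6 in hepatocytes, with median differences of 1.77 and 3.29. Of the immunity-related GTPases Irgm1, Irgm2 and Iigp1, which act on the same vacuoles and are also induced by interferon gamma, 0 of 3 rose in either tissue by limma, also at an unadjusted p under 0.05, with median differences of -0.13 and 0.09. All 3 were above the negative control percentile in both diets, so their values were not limited by background. The near copies among Gbp genes on the array may share signal, which was not checked.

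Gbp2 had 9.37, 9.34, 9.13 and 9.88 on CDAA livers, against 7.69, 6.86, 7.56 and 6.78 on CSAA livers. In hepatocytes it had 8.79, 10.69 and 8.66 on CDAA, against 5.20, 4.34 and 5.62 on CSAA. Both tissues separated by more than 1 unit. The differences were 2.21 ± 0.40 (limma adjusted p = 0.00196, dim signals) and 4.33 ± 0.47 (limma adjusted p = 5.71e-06, at least 1.64). Gbp3 differed by 2.17 ± 0.35 and 3.29 ± 0.40 (limma adjusted p = 0.000707 and 2.05e-05), with its CSAA arrays under the negative control percentile and bounds of only 0.03 and 1.21. Gbp9 differed by 1.69 ± 0.19 from signals that were dim in both diets in total liver, and by 3.29 ± 0.22 with no bound in hepatocytes (limma adjusted p = 2.88e-05 and 3.71e-08). Gbp4 had 10.94, 10.35, 10.68 and 11.13 on CDAA livers, against 10.24, 9.36, 10.10 and 9.76 on CSAA livers, a difference of 0.92 ± 0.23 (limma adjusted p = 0.0178) between groups that did not overlap. Its hepatocyte values were 9.40, 9.67 and 9.86 on CDAA, against 7.31, 6.83 and 7.07 on CSAA (2.57 ± 0.27, limma adjusted p = 3.62e-06, at least 1.90). Gbp7 passed in hepatocytes (1.65 ± 0.43, limma adjusted p = 0.0124) and not in total liver (0.78 ± 0.37, limma adjusted p = 0.216), without a called difference between them (limma adjusted p = 0.618). Gbp8 differed by 1.85 ± 0.50 and 3.32 ± 0.57 and was called in both tissues, with bounds of 0.17 and 1.52.

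Irgm1, a regulator of the GTPase family and of autophagy, had 11.86, 11.91, 12.50 and 12.25 on CDAA livers, against 12.29, 11.66, 12.29 and 11.97 on CSAA livers. The hepatocyte arrays gave 10.98, 11.10 and 9.34 on CDAA, against 10.62, 10.19 and 10.35 on CSAA. The diets overlapped in both tissues, with differences of 0.08 ± 0.32 and 0.09 ± 0.37 (limma adjusted p = 0.915 and 0.901). Irgm2 differed by -0.13 ± 0.33 and 0.31 ± 0.39, and Iigp1, an effector GTPase, by -0.30 ± 0.26 and -0.13 ± 0.30, with limma adjusted p-values from 0.525 to 0.858. That the 2 GTPase families differ from each other in diet effect was not tested.

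Promoters of a type II biased gene that rose and of 2 that did not pass are shown together, because all 3 carry the ISRE core. Gbp2 (chr3:142620463-142620662, plus strand) holds 1 match that begins at position -59, Irgm1 (chr11:48871421-48871620, minus strand) holds 2 overlapping matches, and Irgm2 (chr11:58214777-58214976, plus strand) holds an ISRE core and a GAS core.
Gbp2: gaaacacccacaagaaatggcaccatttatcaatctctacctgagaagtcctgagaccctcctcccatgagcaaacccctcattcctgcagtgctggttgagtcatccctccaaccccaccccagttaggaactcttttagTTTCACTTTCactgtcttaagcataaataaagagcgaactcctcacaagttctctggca
Irgm1: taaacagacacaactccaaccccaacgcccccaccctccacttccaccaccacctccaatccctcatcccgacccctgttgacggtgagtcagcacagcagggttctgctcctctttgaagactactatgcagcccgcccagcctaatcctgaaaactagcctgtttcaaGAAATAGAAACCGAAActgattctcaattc
Irgm2: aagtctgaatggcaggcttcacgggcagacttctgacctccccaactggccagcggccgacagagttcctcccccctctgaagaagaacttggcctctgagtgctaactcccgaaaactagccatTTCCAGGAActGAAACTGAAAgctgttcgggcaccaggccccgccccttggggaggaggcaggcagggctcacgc

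Ifi30, the lysosomal thiol reductase of antigen-presenting cells, had the largest measured difference of the members in hepatocytes. It had 13.07, 12.65, 12.75 and 12.70 on CDAA livers, against 9.48, 8.54, 9.61 and 9.41 on CSAA livers. Hepatocyte preparations had 13.93, 15.60 and 14.89 on CDAA, against 6.02, 6.27 and 6.11 on CSAA. The CSAA arrays of both tissues were under the negative control percentile and the CDAA arrays far above it. The differences were 3.53 ± 0.31 (limma adjusted p = 2.73e-06, at least 2.71) and 8.68 ± 0.35 (limma adjusted p = 2.41e-10, at least 7.07). CDAA hepatocyte replicate 1, at 13.93 the lowest of its group, was also lowest in the recruited macrophage list at 10.17, against 11.99 and 11.88 on replicates 2 and 3. It was lowest in several other lists as well, as given for the PYHIN genes below, and the part of those cells was not tested.

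Among unassigned members the PYHIN genes moved together: 6 of 7 rose in total liver and 7 of 7 in hepatocytes, with median differences of 1.94 and 5.84. These proteins bind DNA through a HIN domain, and human relatives include the DNA sensors IFI16 and AIM2. Ifi207 had 12.96, 12.66, 12.94 and 13.01 on CDAA livers, against 9.90, 9.24, 10.70 and 10.44 on CSAA livers. In hepatocytes it had 12.37, 12.13 and 11.58 on CDAA, against 3.64, 4.55 and 4.37 on CSAA. The hepatocyte groups were the more widely separated. The differences were 2.82 ± 0.30 (limma adjusted p = 1.6e-05) and 7.84 ± 0.34 (limma adjusted p = 5.74e-10, at least 4.29). Ifi211 differed by 2.38 ± 0.46 and 7.41 ± 0.53 (limma adjusted p = 0.00294 and 7.85e-08), and Ifi204, a mouse gene often set beside human IFI16, by 2.34 ± 0.36 and 6.18 ± 0.42 (limma adjusted p = 0.000515 and 4.2e-08, at least 5.70 in hepatocytes). Of the 3 CSAA hepatocyte arrays, 2 were under the percentile for Ifi211. Smaller bounds held in hepatocytes for Ifi208, Ifi209 and Ifi213, at 0.23, 1.73 and 1.82. The median PYHIN deviation from the CSAA mean was 4.06 on CDAA hepatocyte replicate 1 and 6.59 and 6.81 on replicates 2 and 3. In CDAA livers the same median was 1.83 to 2.19. Hepatocyte replicate 1 was not the lowest of its group for Ifi207 or Ifi214. It was lowest in the recruited macrophage, Kupffer cell, stellate cell, T and NK cell, B cell, neutrophil and conventional dendritic cell lists. In the hepatocyte, endothelial and bile duct cell lists it was highest. The part of those cells was not tested. The PYHIN genes are close in sequence, and whether their probe sets tell them apart was not checked.

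The promoter of Ifi207 (chr1:173741810-173742009, minus strand), the PYHIN gene with the largest measured difference in hepatocytes, is shown for its single ISRE core.
Ifi207: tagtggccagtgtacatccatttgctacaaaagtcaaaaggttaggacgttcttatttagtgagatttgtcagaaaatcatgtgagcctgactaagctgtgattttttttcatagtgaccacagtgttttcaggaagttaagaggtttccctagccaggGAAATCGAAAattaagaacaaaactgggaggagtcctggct

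The Ifitm genes encode small membrane proteins that hinder virus entry, and 1 of 6 rose in total liver (Ifitm6) and 4 of 6 in hepatocytes (Ifitm1, Ifitm2, Ifitm3 and Ifitm6). Ifitm2 was bright in every group, at 16.20, 15.82, 16.04 and 16.04 on CDAA livers, against 15.42, 15.15, 15.38 and 15.55 on CSAA livers. Its hepatocyte values were 16.91, 17.71 and 17.56 on CDAA, against 14.73, 15.07 and 15.47 on CSAA. The diets did not overlap in either tissue, but the difference of 0.65 ± 0.21 in total liver missed the threshold (limma adjusted p = 0.0659), while 2.31 ± 0.24 in hepatocytes passed (limma adjusted p = 4.75e-06). Ifitm1 differed by 1.26 ± 0.47 in total liver (limma adjusted p = 0.105, CSAA livers under the negative control percentile, bound 0.39) and rose by 4.45 ± 0.54 in hepatocytes (limma adjusted p = 1.78e-05). Ifitm3, the member best known for restricting influenza virus, differed by 0.28 ± 0.18 in total liver (limma adjusted p = 0.371) and rose by 0.90 ± 0.21 in hepatocytes (limma adjusted p = 0.00572). Ifitm6 was dim, and rose by 0.91 ± 0.26 and 1.43 ± 0.30 (limma adjusted p = 0.0346 and 0.00284). Of the dim members Ifitm5, an osteoblast gene, and Ifitm7, neither was called, with Ifitm7 at -0.55 ± 0.19 in total liver (limma adjusted p = 0.0869). Ifi35, Isg20l2, Irf4, Irf2bp1, Irf2bp2 and Irf2bpl were called in neither tissue, with differences from -0.73 to 0.70.

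The diet effect was compared between tissues by testing the difference of the 2 effects, total liver minus hepatocytes. It was called higher for 1 member (0.212% of all probe sets) and lower for 13 members (2.36% of all). The member with the larger effect in total liver was Mx1, described above. Those with the larger effect in hepatocytes were 5 PYHIN genes (Ifi204, Ifi207, Ifi209, Ifi211 and Ifi213), Ifi30, Ifi27l2a, Ifitm1, Ifitm2, Gbp4, Gbp9, Irf1 and Oasl2. Background limits this comparison, since 11 of these 14 members had at least 1 of the 4 groups under the negative control percentile on every array, the percentile differed between the tissues, and no bound was computed for the difference. The members with no such group were Ifi211, Ifitm2 and Irf1, and only Ifitm2 was above the percentile on every array. Ifi211 was above it on 3 CSAA livers and 1 CSAA hepatocyte array, and Irf1 on 1 CSAA liver and 2 CSAA hepatocyte arrays. Measured differences of the effects included Ifi30 at -5.14 ± 0.47 (limma adjusted p = 1.41e-05), Ifi211 at -5.04 ± 0.70 (limma adjusted p = 0.000631) and Ifi207 at -5.02 ± 0.46 (limma adjusted p = 1.41e-05). By class these were 3 of 28 type I biased members, Mx1 included, 4 of 12 type II biased and 7 of 22 unassigned members. The count was 9 without CSAA hepatocyte replicate 2, where 20 of all 22206 probe sets were called higher and 431 lower. It was 22 without CDAA hepatocyte replicate 1, where 1025 of all probe sets were called higher and 1240 lower. In the reported fit these were 47 and 523, so calls over the whole array moved as well.

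Across the 62 members the effects in the tissues ran in parallel (Pearson r = 0.834, Spearman rho = 0.91 across genes, which are not independent replicates and share arrays and probe chemistry), beside 0.777 and 0.608 across all tested probe sets. The sign was the same for 56 of 62. It was the same for 73.7% of all probe sets. The signed difference (more positive or less negative) was higher in hepatocytes for 12 of 12 type II biased members and 19 of 28 type I biased members, beside 48.5% of all probe sets. The 12 include Irgm1, Irgm2 and Iigp1, which were called in neither tissue. Of these, Irgm1 differed by 0.08 in total liver and 0.09 in hepatocytes, and Iigp1 was negative in both, at -0.30 and -0.13. In all, 26 members rose in both tissues, 3 passed in total liver alone (Mx1, Oas2 and Oasl1), 7 in hepatocytes alone (Gbp7, Ifi214, Ifit1, Ifitm1, Ifitm2, Ifitm3 and Oas3) and 26 in neither. Of the 10 genes called in 1 tissue, the difference between tissues was called for Mx1, Ifitm1 and Ifitm2.

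**Figure D5:**
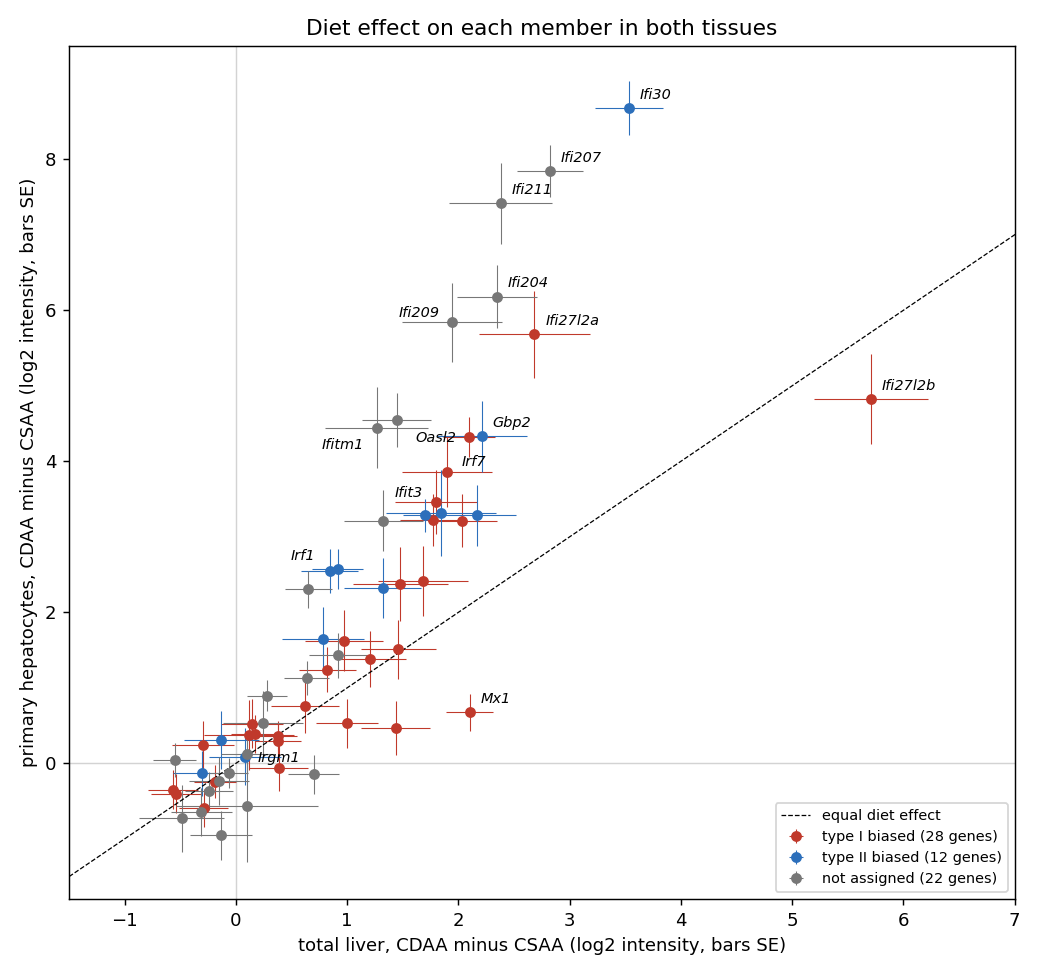
Diet effect on each of the 62 members in total liver (horizontal) and primary hepatocytes (vertical), both as CDAA minus CSAA in log2 intensity with SE bars, and a dashed line where they are equal. Ifi30 at 3.53 and 8.68 and the PYHIN genes lie far above the line, Mx1 lies below it, and Irgm1 lies near 0 on both axes.

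Among genes upstream of the members, of 20 interferon and receptor genes, 3 rose and 0 fell in total liver (limma, with 2 lower at an unadjusted p under 0.05), and 3 rose and 2 fell in hepatocytes, the 2 that fell being the dim interferon alpha genes Ifna5 and Ifna13. For these lists the shares of all probe sets are again 6.73% higher and 3.54% lower in total liver and 11.0% higher and 7.74% lower in hepatocytes, and the counts of 3 and 2 of 20 lie near them. The ligands Ifnb1 and Ifng were under the negative control percentile in all 4 groups and gave no call. Ifng had 4.79, 4.63, 4.28 and 4.45 on CDAA livers, against 4.15, 5.21, 5.33 and 4.11 on CSAA livers (-0.16 ± 0.29, limma adjusted p = 0.791), and it differed by 0.84 ± 0.33 in hepatocytes (limma adjusted p = 0.0929). Of the type I receptor, Ifnar1 differed by -0.01 ± 0.20 and 0.51 ± 0.23 and Ifnar2 by -0.18 ± 0.22 and -0.21 ± 0.25, with no call. Both chains of the type II receptor rose. Ifngr1 had 12.28, 11.92, 11.24 and 11.76 on CDAA livers, against 10.42, 10.32, 10.32 and 10.32 on CSAA livers (1.46 ± 0.25, limma adjusted p = 0.00124), and rose by 2.36 ± 0.29 in hepatocytes (limma adjusted p = 2.15e-05). Ifngr2 rose by 1.297 ± 0.30 and 1.55 ± 0.34 (limma adjusted p = 0.00951 and 0.00418), and Il10rb, shared by the interferon lambda and interleukin 10 receptors, by 1.49 ± 0.33 and 4.68 ± 0.38 (limma adjusted p = 0.00779 and 3.07e-07, at least 0.74 and 3.32).

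Of 14 genes of JAK-STAT signalling and its brakes, 3 rose in each tissue: Usp18, Ptpn1 and Ptpn6, all of which restrain the pathway. None of the 14 fell in total liver, also at an unadjusted limma p under 0.05, and 1 fell in hepatocytes. Usp18, which removes Isg15 and blocks the type I receptor, rose by 1.69 ± 0.41 in total liver and 2.03 ± 0.47 in hepatocytes (limma adjusted p = 0.0145 and 0.00642, at least 0.35 in total liver). Of 17 sensors and adaptors of nucleic acids, 8 rose in total liver and 9 in hepatocytes. Tlr7, the endosomal sensor of single-stranded RNA, rose by 2.53 ± 0.31 and 6.49 ± 0.36 (limma adjusted p = 7.66e-05 and 5.89e-09, at least 0.63 and 3.27), and Sting1, the adaptor of cytosolic DNA sensing, by 1.91 ± 0.32 and 3.99 ± 0.37 (limma adjusted p = 0.000923 and 1.1e-06, no bound in either tissue). Tlr7 is a macrophage and dendritic cell gene. The macrophage lists given above were also higher on CDAA, and the part of those cells in the rise of Tlr7 was not tested.

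Other targets of both interferon types rose too. Of 29 other type I biased genes, 16 rose in total liver and 19 in hepatocytes, with median differences of 1.33 and 2.03. Rsad2, the antiviral enzyme viperin, had 9.93, 9.84, 9.49 and 9.79 on CDAA livers, against 7.77, 7.56, 8.57 and 7.57 on CSAA livers (1.89 ± 0.31, limma adjusted p = 0.000792), all under the negative control percentile. In hepatocytes it differed by 1.04 ± 0.36 and missed the threshold (limma adjusted p = 0.0542). Of 25 other type II biased genes, 10 rose in total liver and 13 in hepatocytes, with median differences of 1.02 and 2.40. Cxcl10, a chemokine that draws T cells, had 9.91, 9.86, 9.71 and 9.68 on CDAA livers, against 6.09, 5.38, 7.05 and 6.51 on CSAA livers (3.53 ± 0.43, limma adjusted p = 6.09e-05), all under the negative control percentile. The hepatocyte arrays gave 11.64, 10.93 and 10.43 on CDAA, against 6.66, 4.46 and 4.90 on CSAA (5.66 ± 0.49, limma adjusted p = 6.35e-07, at least 3.26). Cxcl9 rose by 2.29 ± 0.41 and 4.05 ± 0.47 (limma adjusted p = 0.00153 and 1.13e-05, at least 1.86 in total liver), and the MHC class II gene H2-Ab1 by 3.12 ± 0.51 and 8.40 ± 0.59 (limma adjusted p = 0.000842 and 6.45e-08, at least 2.65 and 6.83). Igtp, a further immunity-related GTPase, gave no call (0.36 ± 0.35 and 0.62 ± 0.40, limma adjusted p = 0.582 and 0.321), nor did Ciita, the class II transactivator (0.57 ± 0.22 and 0.12 ± 0.26, limma adjusted p = 0.128 and 0.788). No limma call was lower in these last 3 lists in total liver, also at an unadjusted p under 0.05, and 1 sensor was lower at that level in hepatocytes. The macrophage lists given above were higher on CDAA in the same samples, and the part of those cells in the rise of these targets was not tested.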

How the data were processed

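The deposited table held 28846 rows of log2 intensity for 14 arrays, made by the authors with RMA per the submitters' processing notes (background correction, quantile normalization and summarization). Array software and annotation version were not given in the sources used here. The array medians differ between tissues, as if each tissue had been normalized on its own. Control probe sets (6640) were left out. The 22206 others, of which 19572 have 1 symbol and 2634 none in GEO's platform annotation, were fitted with limma 3.58.1 in R 4.3.3, with 4 group means, 10 residual and 5.11 prior degrees of freedom and empirical Bayes moderation, and Benjamini-Hochberg adjustment over all of them. The fit was tested on simulated data.

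Members, classes, pathway lists, marker lists and the negative control percentile were chosen with earlier results of these data known. The number of arrays limits precision. Genes named with values were, for each family, the 3 and 2 smallest p-values in the diet contrast of total liver and of hepatocytes and the 1 smallest for the difference between tissues, a fixed set of well-known members, and 2 genes of each pathway list per diet contrast with a fixed set beside them. A few others (Gbp8, Ifit1bl1, Ifit1bl2, Ifi44l, Ifitm5, Ifna5, Ifna13, Ncr1, Klrb1c, Gzma, Oas1g and those in counts) were named after their values were seen, and values of 2 genes of the fixed sets are not reported here. Replicate numbers were not taken as pairs across diets. Deviations of same-numbered arrays correlated at 0.35, -0.21 and 0.26 in hepatocytes and from -0.13 to 0.02 in total liver, and so few values cannot exclude pairing. Alternatives were other moderation, only the compared groups, a filter on dim probe sets, joint quantile normalization, centring, array weights, the replicate block, each array left out and the mean over probe sets of a gene.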

Additional observations from a re-analysis of the deposited data

Results flagged for a closer look

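Of 124 groups of 4 arrays tested for a value far from the others, 4 held one, where chance gives about 1 in 20. Ifi208 stood high on CDAA liver replicate 4 (9.06), Ifit3b low on CDAA liver replicate 2 (11.17), Ifitm1 high on CDAA liver replicate 1 (11.09), and Irf8 high on CSAA liver replicate 4 (5.84). Groups of 3 hepatocyte arrays were not tested this way.

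For 14 members the diet effect differed between tissues in limma's test of the difference, total liver minus hepatocytes in log2 intensity. It was 1.43 for Mx1. Among PYHIN genes it was -5.04 for Ifi211, -5.02 for Ifi207, -3.89 for Ifi209, -3.84 for Ifi204 and -3.1 for Ifi213. It was -5.14 for Ifi30, -3.18 for Ifitm1, -3.0 for Ifi27l2a, -2.22 for Oasl2, -1.7 for Irf1, -1.66 for both Gbp4 and Ifitm2, and -1.59 for Gbp9. The macrophage, endothelial and stellate marker lists also differed more by diet, in mean level, in hepatocyte preparations than in total liver, and their part was not tested.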

How the results depend on the processing

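No called member changed sign under any alternative run. Members that were not called became called as lower in some: Ifi44l and Ifitm7 in total liver with centring, array weights or only the compared groups in the fit, and Irf3 in hepatocytes with centring, joint quantile normalization, without the dimmest probe sets or without CDAA replicate 1 or 2. Oas1e (centring), Irf2 and Irf2bpl (array weights or without CDAA replicate 1) and Irf2bp2 (without CDAA replicate 1) did so in hepatocytes too. With only the compared groups in the fit, the hepatocyte calls of Gbp7, Ifi214, Ifit1, Ifitm3, Isg15, Isg20, Oas1a, Oas1g and Oas3 were lost, leaving 24. In total liver that fit kept all 29 calls and added 8, with Ifi44l and Ifitm7 among them as lower. The members called were 21 to 38 in total liver (29 as reported) and 24 to 41 in hepatocytes (33 as reported). With the replicate number as a block they were 28 in total liver, 26 of them shared with the 29, and 35 in hepatocytes. In that fit 13 members differed between tissues, and whether the numbers pair arrays is not known. The count of members whose diet effect differed between tissues was 14 as reported, 24 with array weights, and 9 (without CSAA hepatocyte replicate 2) to 22 (without CDAA hepatocyte replicate 1) with 1 array left out. Calls over all 22206 probe sets moved too, from 47 higher and 523 lower as reported to 1035 and 1690 with array weights. They were 1025 and 1240 without CDAA hepatocyte replicate 1. The type I biased median in total liver was 0.98 as reported, 1.47 without the dimmest 30% of probe sets (fewer members tested), 0.85 after centring arrays on their medians, and 0.85 to 1.12 with 1 array left out. In hepatocytes it was 0.72 as reported, 1.57 without the dimmest 30% and 1.003 with array weights. The type II biased median in hepatocytes was 2.56 as reported, 2.93 with array weights, 2.40 after centring and 2.29 under joint quantile normalization. The cause of the changes with centring and array weights was not tested. Centring moved the median of all probe sets from -0.09 to -0.23 in total liver and from -0.13 to -0.29 in hepatocytes. Signal near the negative control level limits these results: 37 of 62 members in total liver and 21 in hepatocytes were under the percentile in both diets. On CSAA alone, 45 were under it in total liver and 42 in hepatocytes. Near copies within the Ifit, Oas, PYHIN and Gbp families may share signal.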
